A study of Homo sapiens with 6 samples.

Results

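The 36 genes described here are targets of the transcription factor NRF2, its sensor KEAP1, and enzymes of glutathione metabolism and the pentose phosphate pathway. They were chosen by name from a fixed list, with earlier results of these data known. All 36 were found among the 27914 genes of the deposited table. Expression was measured by RNA sequencing in 6 libraries of MCF10A, a human breast epithelial cell line that is immortal but does not form tumours. The 3 libraries of the genotype α-/-;βin were compared with 3 libraries of SCRin control cells, labelled wild-type. All 6 samples had received doxycycline for 3 days. The labels do not spell out SCR, in, α or β, and do not say whether either line is a clone. From the series title, which names PI5P4K, α and β were read as the lipid kinases encoded by PIP4K2A and PIP4K2B. Values are TPM, transcript abundances scaled per transcript length to the same total of 1000000 in each library, so levels can be compared between genes but the number of reads is unknown.

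PIP4K2A averaged 4.201 ± 0.132 TPM in α-/-;βin cells and 20.6 ± 1.02 TPM in controls, and PIP4K2B averaged 9.49 ± 1.83 TPM in α-/-;βin cells and 21.8 ± 1.21 TPM in controls (SD, n = 3 each), so both targeted genes matched the labels. All 9 epithelial markers examined averaged at least 1 TPM, while 5 of 7 fibroblast, 4 of 5 immune and 4 of 4 endothelial markers averaged under 1 TPM. PTPRC, COL3A1 and THY1 were listed at 0 in every library. The exceptions were CD68 of the immune list, with a mean of 39.1 TPM over the 6 libraries, and COL1A1 at 2.08 TPM and DCN at 2.25 TPM of the fibroblast list. Replicates carry the numbers 1 to 3 in both groups, and nothing in the labels says that each was a culture of its own. The p-values thus reflect the spread among these 6 samples, and that spread may be technical. In bulk RNA, fewer cells of a type and less RNA per cell cannot be told apart.

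NRF2, encoded by NFE2L2, is held low in unstressed cells because KEAP1, an adaptor of a CUL3 ubiquitin ligase, presents it for degradation. Electrophiles and oxidants modify cysteines of KEAP1, NRF2 then accumulates, pairs with small MAF proteins and binds antioxidant response elements of its target genes. Control is thus mainly over the protein, and the mRNA of NFE2L2 need not follow the activity of NRF2. The targets import cystine, make and recycle glutathione, reduce peroxides, quinones and carbonyls, export conjugates, store iron and supply NADPH through the pentose phosphate pathway.

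The short antioxidant response element, TGACNNNGC, was searched on both strands of the promoters listed by RefSeq for GRCh38.p14, each covering 250 bases before to 50 bases after a transcript start. The table held 27 of the 36 genes, with 39 promoters. The motif was found in 10 of the 39 promoters (25.6%), against 13.3% of all 35116 promoters and 14.7% of the 13636 promoters of tested genes. By gene, 9 of 27 members (33.3%) had it, against 19.8% of tested genes. A match describes these letters only, and many known elements of this family lie outside such a window. The promoters of GCLM, a glutathione synthesis gene, and of GSTP1 are shown as examples. GSTP1 had the narrowest spread between libraries among the members whose groups did not overlap. The motif begins 34 bases before the start in GCLM and 66 bases before it in GSTP1. Some motifs of other members lie closer, such as 1 of TXNRD1 at 8 bases. The promoter of NXN, the only member past the test, is shown for its outermost start. Each is written 5′ to 3′ on the strand of the gene, with the motif in capitals, read as its reverse complement in GCLM. In GSTP1 the motif overlaps TGACTCA, the AP-1 site.

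GCLM promoter, chr1:93909381-93909680, minus strand: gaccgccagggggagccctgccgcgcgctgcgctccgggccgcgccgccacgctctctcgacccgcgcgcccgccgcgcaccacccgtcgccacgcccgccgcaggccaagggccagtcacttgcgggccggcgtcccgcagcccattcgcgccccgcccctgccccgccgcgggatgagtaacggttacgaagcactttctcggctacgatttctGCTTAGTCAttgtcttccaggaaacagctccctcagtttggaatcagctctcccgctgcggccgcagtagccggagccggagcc
GSTP1 promoter, chr11:67583562-67583861, plus strand: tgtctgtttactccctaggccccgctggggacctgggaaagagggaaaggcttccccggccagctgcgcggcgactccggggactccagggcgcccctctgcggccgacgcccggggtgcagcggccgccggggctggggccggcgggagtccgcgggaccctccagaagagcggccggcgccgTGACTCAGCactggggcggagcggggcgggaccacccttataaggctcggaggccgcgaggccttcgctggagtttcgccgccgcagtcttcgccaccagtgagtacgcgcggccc
NXN promoter, chr17:979727-980026, minus strand: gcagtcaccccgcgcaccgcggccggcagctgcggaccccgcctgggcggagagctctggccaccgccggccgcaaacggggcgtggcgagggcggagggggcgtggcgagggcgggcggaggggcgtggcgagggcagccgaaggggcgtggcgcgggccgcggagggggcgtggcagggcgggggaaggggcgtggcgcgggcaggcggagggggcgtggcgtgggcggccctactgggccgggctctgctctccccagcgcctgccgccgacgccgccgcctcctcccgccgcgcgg

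The NXN promoter holds no match, and 83.3% of its bases are G or C, against 71.7% for GCLM and 74.0% for GSTP1. The remaining matches among expressed members are shown with their flanks, turned so that the motif reads forward, to let the variable central bases be compared. TXNRD1 has matches at both of its listed starts. GPX2, which also has a match, was near 0 TPM and is not shown.

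TXNRD1, chr12:104215670-104215698, plus strand: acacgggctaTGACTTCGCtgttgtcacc
TXNRD1, chr12:104215761-104215789, minus strand: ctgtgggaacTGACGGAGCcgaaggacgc
TXNRD1, chr12:104286920-104286948, minus strand: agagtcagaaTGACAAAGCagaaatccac
KEAP1, chr19:10502784-10502812, plus strand: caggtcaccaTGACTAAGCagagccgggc
KEAP1, chr19:10502807-10502835, minus strand: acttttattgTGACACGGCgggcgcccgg
PGD, chr1:10398853-10398881, minus strand: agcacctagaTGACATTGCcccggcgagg
CBR1, chr21:36069855-36069883, minus strand: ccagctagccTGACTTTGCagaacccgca
EPHX1, chr1:225825266-225825294, plus strand: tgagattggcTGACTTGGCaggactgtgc
MGST1, chr12:16347135-16347163, plus strand: ggggacatcgTGACAAAGCaaattgtctg

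The levels of the members spanned a wide range. FTH1, the ferritin heavy chain that stores iron, stood first with a mean of 4331 TPM over the 6 libraries. It was followed by TXN, thioredoxin, at 1572 TPM, PRDX1, a peroxiredoxin, at 1435 TPM, FTL, the ferritin light chain, at 1244 TPM, GSTP1, a glutathione transferase, at 1224 TPM and MGST1, a membrane-bound one, at 1093 TPM. Among the lowest were HMOX1, the inducible haem oxygenase, at 5.69 TPM and AKR1B10, an aldo-keto reductase, at 3.16 TPM. GPX2, an epithelial glutathione peroxidase, was listed at 0.211, 0.567 and 0 TPM in α-/-;βin libraries and at 0 in all controls. GSTM3, a glutathione transferase of the mu class, was listed at 0.0486 TPM in α-/-;βin replicate 1 and at 0 in the other 5 libraries. These 2 genes averaged under 1 TPM and were not tested, which left 34 members. Together the 36 genes made up 1.23% to 1.896% of all TPM in α-/-;βin libraries and 1.24% to 1.77% in controls.

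For most members the highest library carried the same replicate number in both groups. Of the 34 tested members, 29 (85.3%) had their highest library at replicate 2 in both groups, against 30.0% of the 12096 genes tested. For replicate 1 the count was 2 members, FTH1 and GPX4, against 13.7% of all genes, and for replicate 3 it was 1 member, GSTP1, against 14.1%. No member had its lowest library at replicate 2 in both groups, against 16.4% of all genes. The lowest library was replicate 1 in both groups for 15 members (44.1%, against 32.2% of all genes) and replicate 3 for 9 members (26.5%, against 10.9%). NFE2L2 and NXN were the other members whose highest library was not replicate 2 in both groups. This count was made after the values had been seen.

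**Figure D1:**
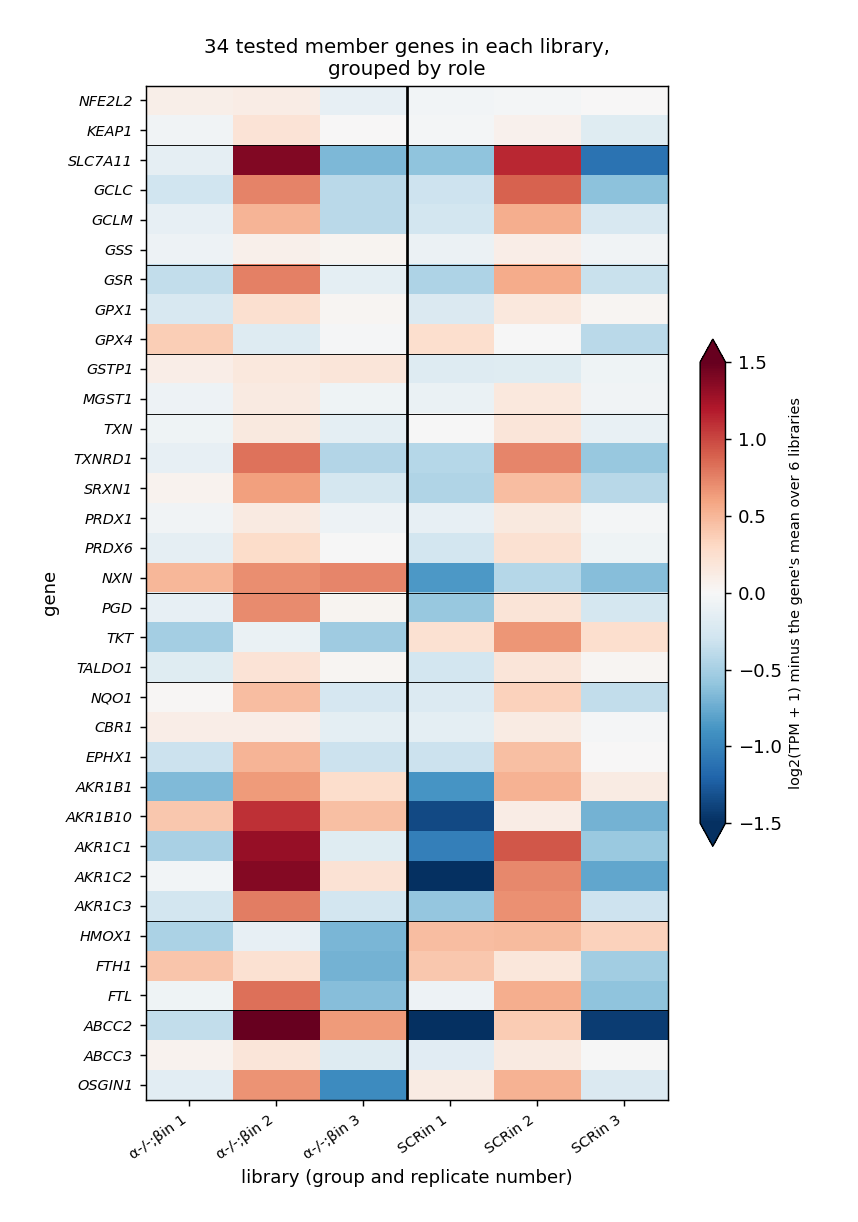
Each row is 1 of the 34 tested members, grouped by role from the regulators at the top to efflux and other targets at the bottom, and each column is 1 library, with the 3 α-/-;βin libraries left of the 3 SCRin control libraries. Colour gives log2(TPM + 1) minus the mean of the gene over 6 libraries. Replicate 2 of each group is red for SLC7A11, GCLC, GCLM, GSR, TXNRD1, SRXN1 and the AKR1C genes, while NXN, TKT and HMOX1 differ between the groups.

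Across the 34 members, the deviations of α-/-;βin replicate 2 and of control replicate 2 had a Pearson correlation of 0.91, against 0.27 across all 12096 genes. It was 0.85 for replicate 1, against 0.25, and 0.83 for replicate 3, against -0.02. The points of such a correlation share their libraries, and the 3 deviations of a group sum to 0, so the values describe these 6 libraries. The median deviation of the members at replicate 2 was 0.35 in α-/-;βin cells and 0.33 in controls on the log2 scale, against 0.04 in α-/-;βin cells and 0.05 in controls over all genes. The labels name no culture, day or batch shared by libraries of 1 number. Of the 9 epithelial markers, 6 had their lowest library at replicate 2 in both groups, against 16.4% of all genes. Among them KRT17, a keratin of basal and activated epithelium, measured 675, 199 and 594 TPM in α-/-;βin replicates 1 to 3 and 419.8, 139 and 693 TPM in control replicates 1 to 3. KRT5, the most abundant of the keratins among these markers, did not have its lowest library at replicate 2 in both groups. It measured 841, 1053 and 988 TPM in α-/-;βin replicates 1 to 3 and 576, 590.3 and 837 TPM in control replicates 1 to 3. What the libraries of 1 number share was not tested.

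**Figure D2:**
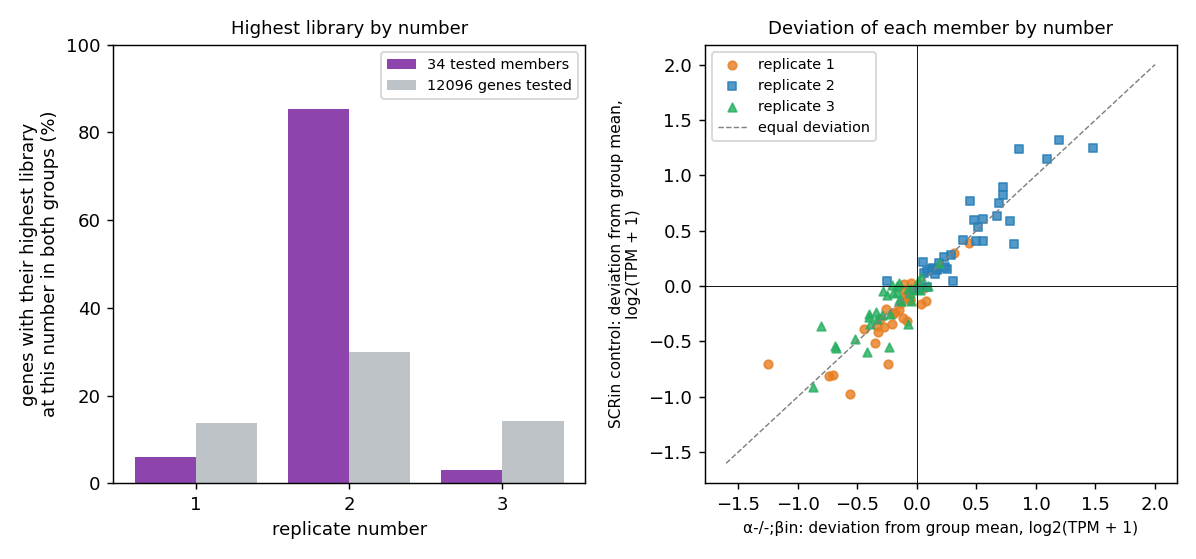
Left, bars give the percentage of the 34 tested members (purple) and of all 12096 genes tested (grey) whose highest library had the given replicate number in both groups, with 85.3% of members at replicate 2 against 30.0% of all genes. Right, each point is 1 member at 1 replicate number, its deviation from the group mean of log2(TPM + 1) in α-/-;βin cells on the x axis and in SCRin controls on the y axis. The points lie along the dashed line of equal deviation, with replicate 2 mostly at the upper right.

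Against this spread, 1 of the 34 members passed the test between the genotypes. The groups were compared with limma on log2(TPM + 1), without a term for the replicate number, with Benjamini-Hochberg adjustment over all 12096 genes and a threshold of 0.05. NXN was higher (1 of 34, or 2.94%, against 0.364% of all genes) and 0 members were lower (against 1.83% of all genes). The members were chosen with earlier results of these data known, so such shares are descriptive only. At an unadjusted p under 0.05 there were 5 members, 14.7% against 11.9% of all genes. The same 5, NXN, GSTP1, AKR1B10, HMOX1 and TKT, were the members whose groups did not overlap, again 14.7% against 17.1% of all genes. Of these, 3 lay higher (8.82%, against 5.64% of all genes) and 2 lower (5.88%, against 11.4%). The shares of 14.7% were near those of the whole table. A fit with the replicate number as a block called 8 members higher and 2 lower, against 284 higher and 597 lower of all 12096 genes. The labels do not pair the numbers, so that fit is given with the alternatives in the last section. The median log2 change of the members was 0.08, against -0.01 for all genes, and 26 of 34 lay above 0 (76.5%, against 46.7%). These signs are not independent, because most members moved together across libraries. In 23 of the 34 the sign turned when 1 library was left out, in 16 of them without α-/-;βin replicate 2. Each removal leaves the replicate numbers unequal between the groups, and most members peaked at replicate 2 in both. The count therefore cannot show whether the direction of a member is stable. The members varied more within a group than most genes did. The median distance between the highest and the lowest library on the log2 scale was 0.71 in α-/-;βin cells and 0.73 in controls, against 0.30 in α-/-;βin cells and 0.35 in controls over all genes. In 10 members (29.4%, against 3.08% of all genes) that distance was at least 1 in each group: SLC7A11, GCLC, GSR, TXNRD1, FTL, ABCC2, AKR1B1, AKR1C1, AKR1C2 and AKR1C3. The median half-width of the 95% interval of a member's log2 change was 0.59, against 0.35 over all genes.

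**Figure D3:**
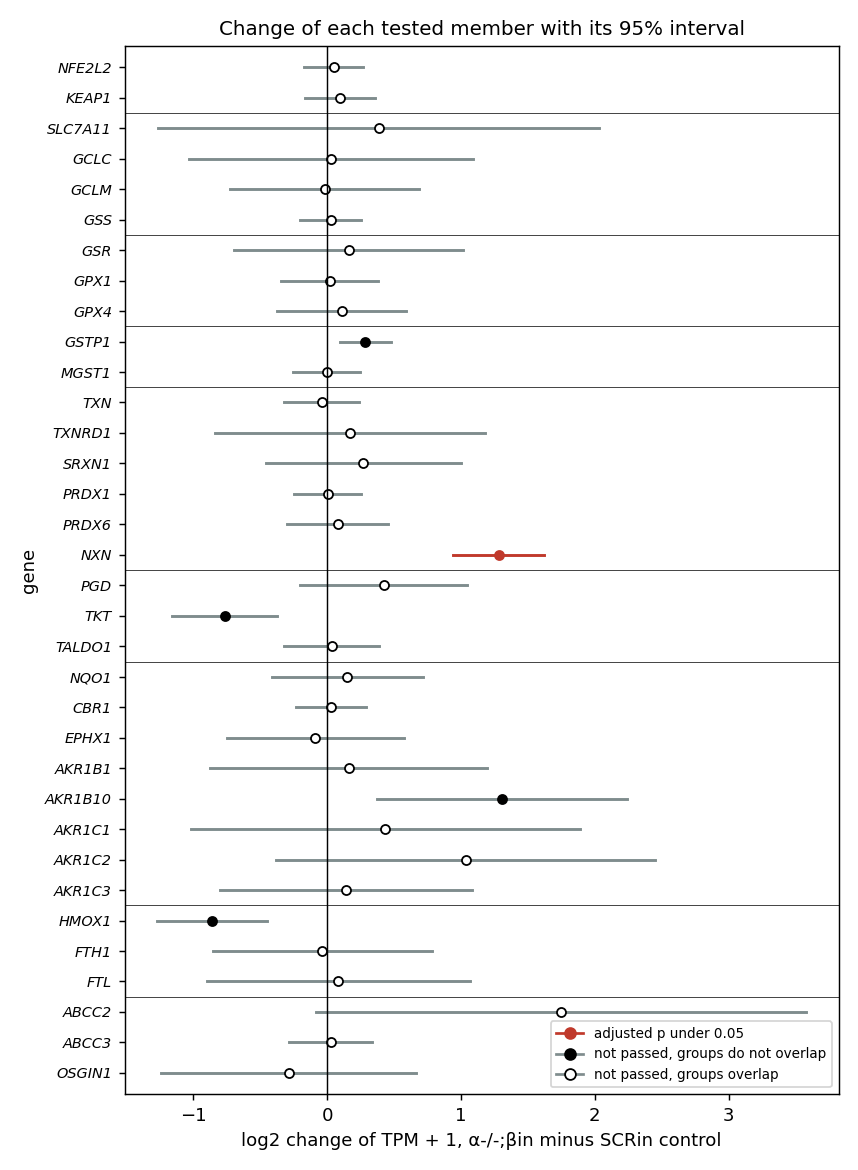
Points give the log2 change of TPM + 1 of each tested member, α-/-;βin minus SCRin control, and lines its 95% interval from limma, with 3 libraries in each group and horizontal rules between roles. NXN alone passed the threshold (red, 1.28), GSTP1, TKT, AKR1B10 and HMOX1 had groups that did not overlap (black), and the intervals of ABCC2, SLC7A11, AKR1C1 and AKR1C2 were the widest.

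The regulators were level between the genotypes. NFE2L2 measured 106, 108 and 91.6 TPM in α-/-;βin libraries and 97.0, 97.7 and 100.5 TPM in controls (log2 change 0.05, 95% interval -0.17 to 0.27, limma adjusted p = 0.914). KEAP1 measured 43.0, 51.8 and 44.9 TPM in α-/-;βin libraries and 44.0, 46.9 and 39.3 TPM in controls (log2 change 0.10, 95% interval -0.16 to 0.36, adjusted p = 0.819). The groups overlapped for both genes, and in the controls NFE2L2 varied by a factor of 1.04 between the highest and the lowest library. SLC7A11 and AKR1C2, which are among the more variable members, varied by factors of 4.83 and 4.74 in the controls. In α-/-;βin cells the factors were 4.28 for SLC7A11 and 2.68 for AKR1C2.

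Among the genes of cystine import and glutathione synthesis, 0 passed the test. SLC7A11, GCLC and GCLM varied strongly between libraries, which left wide intervals for their change between genotypes. SLC7A11, the light chain of the cystine and glutamate exchanger, measured 54.4, 159 and 37.1 TPM in α-/-;βin libraries and 39.1, 132 and 27.4 TPM in controls (log2 change 0.38, 95% interval -1.26 to 2.03, adjusted p = 0.909). GCLM, the modifier subunit of glutamate-cysteine ligase, measured 59.5, 92.7 and 48.6 TPM in α-/-;βin libraries and 53.4, 95.2 and 54.6 TPM in controls (log2 change -0.02, 95% interval -0.72 to 0.69, adjusted p = 0.992). Replicate 2 was the highest in each group, and the groups overlapped for both genes. GCLC, the catalytic subunit of the same rate-limiting enzyme, measured 46.4, 96.0 and 42.9 TPM in α-/-;βin libraries and 45.7, 106 and 37.0 TPM in controls. The ratio of GCLC to GCLM lay between 0.780 and 1.04 in α-/-;βin libraries and between 0.678 and 1.11 in controls. GSS, glutathione synthetase, which completes the tripeptide, was steadier, with 41.9 ± 2.40 TPM in α-/-;βin cells and 41.2 ± 3.09 TPM in controls (SD, n = 3 each).

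Of the genes that recycle glutathione or spend it on peroxides, 0 passed the test. GSR, glutathione reductase, measured 38.9, 85.5 and 45.5 TPM in α-/-;βin libraries and 36.2, 74.6 and 39.8 TPM in controls, with replicate 2 highest in each group. GPX1, the cytosolic glutathione peroxidase, measured 355, 499.98 and 430.4 TPM in α-/-;βin libraries and 363, 471 and 430.2 TPM in controls (log2 change 0.02, 95% interval -0.34 to 0.38, adjusted p = 0.984). GPX4, which reduces lipid peroxides in membranes and restrains ferroptosis, had another order, with 229.8, 155 and 176 TPM in α-/-;βin libraries and 211, 176 and 134 TPM in controls (log2 change 0.11, adjusted p = 0.913). It was highest at replicate 1 in both groups.

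GSTP1 was the steadiest of the abundant members. It measured 1306, 1354 and 1377 TPM in α-/-;βin libraries and 1068, 1076 and 1166 TPM in controls, and the groups did not overlap, with every control lower. The difference did not pass the test over all genes (log2 change 0.29, SE 0.08, 95% interval 0.10 to 0.47, adjusted p = 0.184). MGST1 measured 1034, 1194 and 1047 TPM in α-/-;βin libraries and 1019, 1219.9 and 1047 TPM in controls, and the groups overlapped (log2 change -0.00, 95% interval -0.25 to 0.25, adjusted p = 0.996).

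Among the thioredoxin and peroxiredoxin genes, NXN rose and 5 did not pass. NXN, nucleoredoxin, a thioredoxin-family protein known to bind Dishevelled and restrain Wnt signalling, measured 17.96, 20.8 and 21.4 TPM in α-/-;βin libraries and 6.43, 9.04 and 7.63 TPM in controls. The groups did not overlap, and the mean was 20.1 ± 1.84 TPM in α-/-;βin cells against 7.70 ± 1.31 TPM in controls (SD, n = 3 each), or 260.5% of control. The log2 change was 1.28 (SE 0.14, 95% interval 0.94 to 1.62, limma adjusted p = 0.0065). The call held under each of the 17 alternatives tried.

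TXN and PRDX1, which carry electrons from NADPH to peroxides, were abundant and level. TXN measured 1499 TPM, 1739.7 TPM and 1411.5 TPM in α-/-;βin libraries and 1564, 1772 and 1446 TPM in controls (log2 change -0.04, adjusted p = 0.949). PRDX1 measured 1381, 1569.6 and 1358 TPM in α-/-;βin libraries and 1313, 1587 and 1399 TPM in controls (log2 change 0.00, adjusted p = 0.994). For both the groups overlapped and replicate 2 was the highest in each. TXNRD1, the selenoenzyme that reduces thioredoxin, swung more, with 177, 339 and 142 TPM in α-/-;βin libraries and 143, 321 and 129.6 TPM in controls. The ratio of TXN to TXNRD1 was therefore lowest at replicate 2 in both groups, at 5.13 in α-/-;βin cells and 5.52 in controls, against 8.46 to 11.2 in the other 4 libraries. SRXN1, sulfiredoxin, which repairs overoxidised peroxiredoxins, averaged 130.04 ± 41.8 TPM in α-/-;βin cells and 109 ± 42.3 TPM in controls. PRDX6, a peroxiredoxin that uses glutathione, averaged 513 ± 76.3 TPM in α-/-;βin cells and 486 ± 86.4 TPM in controls (SD, n = 3 each).

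**Figure D4:**
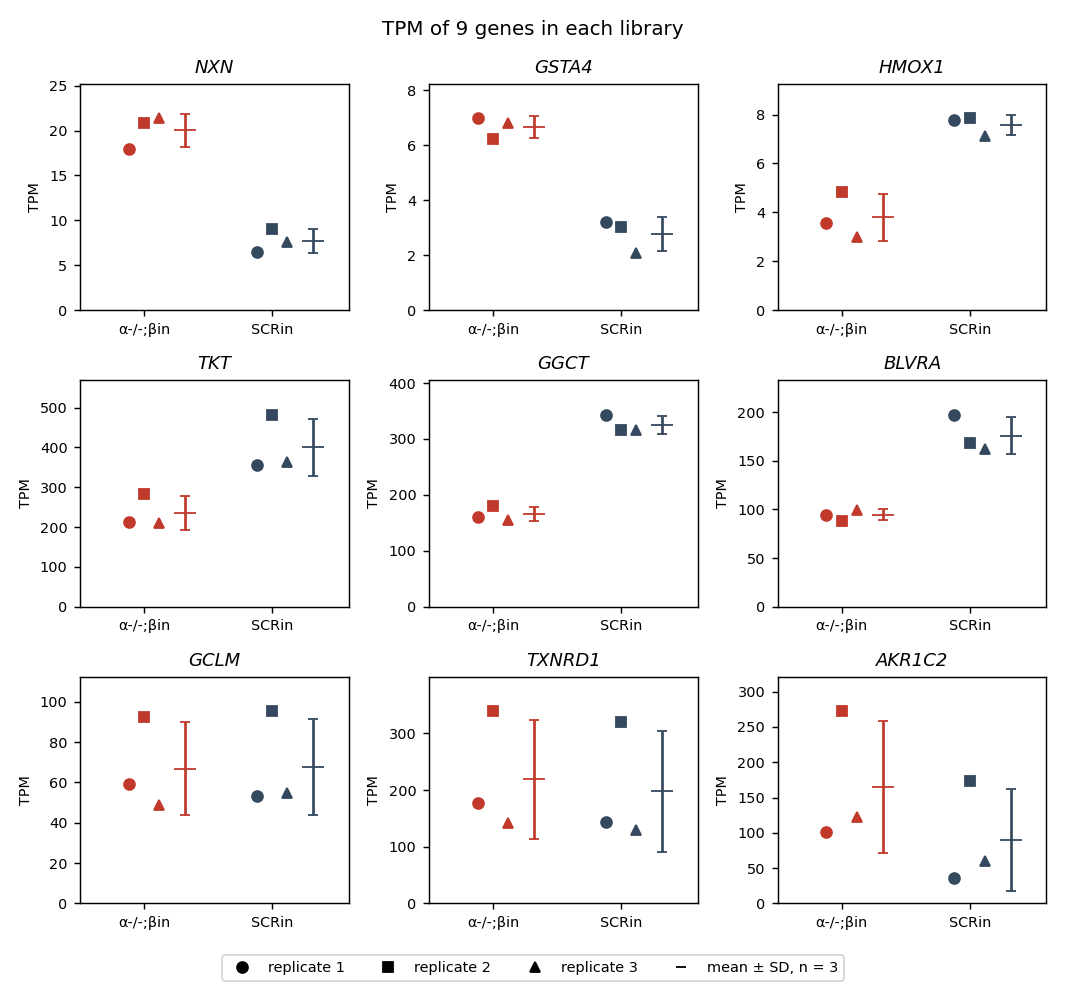
TPM of 9 genes in each library, α-/-;βin (red) left of SCRin control (dark), with a symbol for each replicate number and a bar for the mean ± SD of 3 libraries. Each axis starts at 0. NXN and GSTA4 are higher and HMOX1, TKT, GGCT and BLVRA lower in every α-/-;βin library, HMOX1 and TKT without passing the test, while GCLM, TXNRD1 and AKR1C2 peak at replicate 2 in both groups.

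The pentose phosphate genes did not move together. TKT, transketolase of the non-oxidative branch, measured 212, 284 and 209 TPM in α-/-;βin libraries and 356, 482 and 363 TPM in controls. The groups did not overlap, with a mean of 58.8% of control (log2 change -0.76, SE 0.17, adjusted p = 0.0822), and the difference missed the threshold. TKT is the 1 member inside a stretch of neighbouring genes that was delimited as lowered from these same data, between SEMA3F and RPP14 on chromosome 3, whose 68 tested genes had a median log2 change of -0.81. TALDO1, transaldolase, which works beside it and is encoded on chromosome 11, measured 194, 254 and 225 TPM in α-/-;βin libraries and 182, 251 and 225 TPM in controls, with overlapping groups. PGD, the NADPH-producing 6-phosphogluconate dehydrogenase, measured 135, 240.1 and 151 TPM in α-/-;βin libraries and 98.4, 168 and 122 TPM in controls (log2 change 0.42, 95% interval -0.20 to 1.05, adjusted p = 0.626), and the groups overlapped. The ratio of PGD to TKT was 0.634 to 0.847 in α-/-;βin libraries and 0.276 to 0.348 in controls, with no overlap. The groups of TKT alone did not overlap either, so the ratio is no separate result. No share of such ratios over other pairs of genes was computed.

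Of the 8 genes that reduce quinones and carbonyls or open epoxides, 0 passed the test, and all 8 had their highest library at replicate 2 in both groups. NQO1, the quinone reductase widely used as a readout of NRF2, measured 484, 660.1 and 400.3 TPM in α-/-;βin libraries and 415, 607 and 369.6 TPM in controls (log2 change 0.15, 95% interval -0.41 to 0.71, adjusted p = 0.886). AKR1C1, a hydroxysteroid dehydrogenase, measured 297, 1031 and 367 TPM in α-/-;βin libraries and 203, 789 and 281 TPM in controls (log2 change 0.44, 95% interval -1.02 to 1.89, adjusted p = 0.869). For both genes the groups overlapped. AKR1C2, its close relative, measured 101, 272 and 122 TPM in α-/-;βin libraries and 36.5, 173 and 60.3 TPM in controls (log2 change 1.03, 95% interval -0.38 to 2.45, adjusted p = 0.592). The ratio of AKR1C1 to AKR1C2 was 2.93 to 3.79 in α-/-;βin libraries and 4.56 to 5.58 in controls. AKR1C genes are nearly identical in sequence, and the sources used here name no quantification program, so the division of reads among them is uncertain.

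AKR1C3, the third of these relatives, averaged 151 ± 68.7 TPM in α-/-;βin cells and 139 ± 69.0 TPM in controls (SD, n = 3 each). AKR1B10 measured 3.80, 6.74 and 3.94 TPM in α-/-;βin libraries and 0.410, 2.90 and 1.20 TPM in controls. The groups did not overlap, with every control lower, but the difference did not pass the test (log2 change 1.31, SE 0.40, 95% interval 0.37 to 2.24, adjusted p = 0.232). AKR1B1, the aldose reductase, averaged 258 ± 106 TPM in α-/-;βin cells and 233 ± 104 TPM in controls. CBR1, a carbonyl reductase, averaged 144 ± 14.1 TPM in α-/-;βin cells and 141 ± 13.2 TPM in controls. EPHX1, the microsomal epoxide hydrolase, averaged 99.6 ± 35.96 TPM in α-/-;βin cells and 104 ± 28.7 TPM in controls.

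HMOX1, like TKT, lay below the controls without overlap. It measured 3.57, 4.84 and 2.97 TPM in α-/-;βin libraries and 7.77, 7.85 and 7.13 TPM in controls. The mean was 50.0% of control, and the difference missed the threshold (log2 change -0.86, SE 0.17, 95% interval -1.27 to -0.45, adjusted p = 0.0654). It passed when α-/-;βin replicate 2 was left out (adjusted p = 0.0475, 0.0256 to 0.205 over all alternatives). Its highest and lowest library, with replicate 2 the highest in each group, differed by a factor of 1.63 in α-/-;βin cells and 1.10 in controls.

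The ferritin genes varied by library. FTH1 measured 5542, 4870.3 and 2541 TPM in α-/-;βin libraries and 5492, 4663 and 2880.3 TPM in controls (log2 change -0.04, 95% interval -0.85 to 0.78, adjusted p = 0.988). FTL measured 1107, 2056 and 746 TPM in α-/-;βin libraries and 1098 TPM, 1695 TPM and 763 TPM in controls (log2 change 0.09, adjusted p = 0.974). Replicate 3 was the lowest for both genes in each group. The ratio of FTH1 to FTL was lowest at replicate 2, at 2.37 in α-/-;βin cells and 2.75 in controls. Ferritin genes have many processed pseudogenes, so some of their reads may have been assigned elsewhere.

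The efflux pump ABCC2, which exports glutathione conjugates, gave the largest positive change among the members without passing the test. It measured 5.17, 39.8 and 11.5 TPM in α-/-;βin libraries and 1.68, 9.38 and 1.98 TPM in controls (log2 change 1.75, SE 0.77, 95% interval -0.08 to 3.58, adjusted p = 0.447). Its log2 change lay between 1.01 and 2.37 when 1 library was left out, lowest without α-/-;βin replicate 2. The groups overlapped. ABCC3, a related pump, measured 58.6, 64.4 and 49.2 TPM in α-/-;βin libraries and 49.97, 62.1 and 56.3 TPM in controls, with overlapping groups. OSGIN1, an oxidative stress induced growth inhibitor, averaged 8.94 ± 5.42 TPM in α-/-;βin cells and 10.2 ± 2.89 TPM in controls (SD, n = 3 each).

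Around these members, 112 further genes of the same pathways were listed, of which 96 were tested, 1 rose (1.04%, against 0.364% of all genes) and 4 fell (4.17%, against 1.83%). Their median log2 change was 0.01, against -0.01 for all genes. The 4 that fell all lie in stretches that were delimited as lowered from these same data. Of them, 3 lie between FAM20C and CHCHD2 on chromosome 7, where the 196 tested genes had a median log2 change of -0.91, and ALAS1 lies in the stretch of chromosome 3. NFE2L3, the other listed gene in a stretch, on chromosome 7, did not pass (log2 change -0.46, limma adjusted p = 0.489), and its groups overlapped. Highest at replicate 2 in both groups were 44 of the 96 genes (45.8%, against 30.0% of all genes).

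Of 10 NRF2 partners and regulators, MAFK fell and 9 did not pass. MAFK, a small MAF partner of NRF2, measured 13.95, 14.3 and 13.9 TPM in α-/-;βin libraries and 21.9, 25.9 and 22.02 TPM in controls, without overlap (log2 change -0.68, SE 0.10, limma adjusted p = 0.0204). The call was lost when any library other than control replicate 1 was left out (adjusted p up to 0.105, 0.00894 to 0.105 over its alternatives), at log2 changes of -0.72 to -0.61. SQSTM1, the autophagy receptor that can sequester KEAP1, was the most abundant of the list at 202 ± 58.3 TPM in α-/-;βin cells and 208 ± 54.1 TPM in controls (SD, n = 3 each).

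Of 10 tested genes of cysteine supply and glutathione turnover, GGCT fell. GGCT, a cyclotransferase of glutathione breakdown, measured 161, 180.3 and 156 TPM in α-/-;βin libraries and 343, 315 and 316 TPM in controls, a mean of 51.0% of control (log2 change -0.97, SE 0.09, adjusted p = 0.00489). The groups did not overlap, with every control higher. SLC3A2, the heavy chain that partners SLC7A11, was the most abundant of the list and averaged 424 ± 98.5 TPM in α-/-;βin cells and 316 ± 116 TPM in controls (log2 change 0.46, adjusted p = 0.611). Of 11 tested haem and iron genes, BLVRA and ALAS1 fell. BLVRA, the biliverdin reductase that acts after haem oxygenase, measured 94.6, 88.6 and 99.8 TPM in α-/-;βin libraries and 197, 169 and 162 TPM in controls (log2 change -0.89, SE 0.10, adjusted p = 0.00726). ALAS1, the rate-limiting enzyme of haem synthesis, measured 18.1, 20.9 and 18.4 TPM in α-/-;βin libraries and 32.4, 38.04 and 33.97 TPM in controls (log2 change -0.83, SE 0.11, adjusted p = 0.0103). The groups did not overlap for either gene. The ALAS1 call was lost without control replicate 3 or α-/-;βin replicate 3 (adjusted p = 0.0605 and 0.0631, 0.00265 to 0.0631 over its alternatives), at log2 changes of -0.85 and -0.80.

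Of 22 tested genes of conjugation, reduction and export, GSTA4 rose. GSTA4, a glutathione transferase that detoxifies the lipid peroxidation product 4-hydroxynonenal, measured 6.98, 6.21 and 6.82 TPM in α-/-;βin libraries and 3.20, 3.02 and 2.08 TPM in controls, without overlap (log2 change 1.04, SE 0.17, limma adjusted p = 0.029). The call was lost when any library other than control replicate 1 was left out, and with no filter on low values or without the genes of the stretches (adjusted p = 0.072 and 0.0876, 0.0204 to 0.14 over its alternatives). Its log2 change was 0.90 to 1.09 over these removals and as in the full fit under the other 2 settings. GSTO1, an omega-class transferase, was the most abundant of the list at 349 ± 28.6 TPM in α-/-;βin cells and 388 ± 43.5 TPM in controls (SD, n = 3 each). No gene passed among 18 peroxide and thiol enzymes, where SOD1, the cytosolic superoxide dismutase, averaged 406 ± 38.3 TPM in α-/-;βin cells and 399 ± 55.7 TPM in controls. The same held for 16 genes of the pentose phosphate pathway and NADPH supply, where MTHFD2, a mitochondrial folate enzyme, averaged 195 ± 31.2 TPM in α-/-;βin cells and 165 ± 28.4 TPM in controls. It held also for 9 other reported NRF2 targets, where HTATIP2 averaged 135 ± 14.2 TPM in α-/-;βin cells and 131 ± 19.7 TPM in controls.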

How the data were processed

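RNA was extracted and sequenced on an Illumina NextSeq 500 from 250 ng RNA, per the labels' protocols. The authors deposited 1 table of TPM, scaled per library to 1000000, with 1 column for each of 6 samples. The build was hg19, and the notes name DESeq2 without a role, per the submitters' processing notes. The sources used here give no aligner, quantifier, annotation or strand setting. Columns headed as the experiment were assigned to α-/-;βin by replicate number, as the remaining group. TPM keeps no depth, so no counting intervals are given.

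Tests covered the 12096 genes whose mean over the 6 libraries reached 1 TPM, with limma 3.58.1 in R 4.3.3, on log2(TPM + 1), which understates changes of low genes, with a mean-variance trend, two-sided, and Benjamini-Hochberg adjustment at 0.05. SE and intervals are limma's. The fit was tested on simulated data, where it called 68% of genes changed by 1 on the log2 scale and 89% of those changed by 2. The simulated noise was independent for each gene and held no pattern shared by replicate number.

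Members and lists were chosen with earlier results of these data known. Given in every library are members past the threshold, without overlap, or among the 2 most abundant of their role, and from each further list the called genes and the most abundant one, by means. GCLC, GSR, TXNRD1, PGD, AKR1C2, KRT5 and KRT17 were added after their values were seen, as were PTPRC, COL3A1, THY1, CD68, COL1A1, DCN and NFE2L3. Alternatives were pseudocounts of 0.1 and 0.5, no filter or 5 TPM, 3 scalings, 2 spread models, leaving out the lowered stretches or each library, and the replicate number as a block. Chromosomes and promoters come from RefSeq for GRCh38.p14, which is not the authors' build.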

Additional observations from a re-analysis of the deposited data

How the results depend on the processing

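NXN stayed past the threshold under all 17 alternatives, with log2 changes of 1.17 to 1.39 when 1 library was left out and adjusted p of 0.00235 to 0.0446 over all of them. Without any 1 library, 91 to 189 genes of the whole table were lower and 13 to 30 higher, and 0 to 1 members lower. The counts fell to 31 lower and 14 higher without the genes of the stretches. HMOX1 became the 1 lower member after rescaling without short RNA genes (adjusted p = 0.0464). In 23 of 34 members the sign turned when 1 library was left out, in 16 of them without α-/-;βin replicate 2, and no such change passed the test. Each removal leaves the replicate numbers unequal between the groups.

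The ranges of the log2 change over the 6 removals were as follows. They were -0.21 to 1.05 for SLC7A11, -0.33 to 0.48 for GCLC, -0.28 to 0.25 for GCLM, -0.014 to 0.085 for GSS, -0.17 to 0.48 for GSR, -0.10 to 0.15 for GPX1 and -0.064 to 0.26 for GPX4. They were -0.070 to 0.076 for MGST1, -0.13 to 0.038 for TXN, -0.19 to 0.58 for TXNRD1, -0.061 to 0.081 for PRDX1, -0.037 to 0.21 for PRDX6 and -0.092 to 0.14 for TALDO1. They were -0.042 to 0.36 for NQO1, -0.034 to 0.12 for CBR1, -0.37 to 0.12 for EPHX1, -0.24 to 0.53 for AKR1B1, -0.11 to 1.01 for AKR1C1 and -0.21 to 0.52 for AKR1C3. They were -0.31 to 0.31 for FTH1, -0.31 to 0.42 for FTL, -0.058 to 0.13 for ABCC3 and -0.70 to 0.11 for OSGIN1, and among other genes -0.069 to 0.13 for SOD1, -0.28 to 0.15 for SQSTM1 and -0.058 to 0.16 for HTATIP2. Without a turn of sign, they were 1.01 to 2.37 for ABCC2, 0.55 to 1.66 for AKR1C2, 0.96 to 1.69 for AKR1B10, 0.17 to 0.63 for PGD and 0.030 to 0.57 for SRXN1. Scaling turned 3 signs near 0. GCLM was at 0.0037 with quantile normalization and 0.015 with median-of-ratios scaling, MGST1 was at 0.028 with median-of-ratios scaling, and PRDX1 was at -0.0011 without short RNA genes.

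With the replicate number as a block, 597 genes were lower and 284 higher, and 2 members were lower and 8 higher. The lower members were HMOX1 and TKT. The higher ones were NXN, GSTP1, AKR1B10, AKR1C1, AKR1C2, SLC7A11, PGD and ABCC2, at unchanged log2 changes and adjusted p of 0.00235 for NXN up to 0.0273 for SLC7A11. The labels do not say that numbers pair samples. Over all genes, deviations of same-numbered libraries correlated at 0.25, 0.27 and -0.02 for replicates 1 to 3 (0.85, 0.91 and 0.83 across the members), and replicate 3 of α-/-;βin cells did not correlate best with its own number, so the pairing is a hint from the data and not part of the design.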
